A study of Danio rerio with 18 samples.

Results

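Neurofilament genes encode the intermediate filaments of axons, and their transcripts were followed in whole brains of zebrafish that carried the hu3528 allele of mfn2. The family examined comprised the light chains nefla and neflb, the medium chains nefma and nefmb, the alpha-internexin pair inaa and inab, and the peripherin gene prph. Rows of the deposited count table were taken by these symbols. 7 of its 32057 genes were found in this way, and all 7 were among the 20353 genes with enough counts to be tested. They were nefla (ENSDARG00000057568), neflb (ENSDARG00000012426, reached through its synonym nefl), nefma (ENSDARG00000021351), nefmb (ENSDARG00000043697) and prph (ENSDARG00000028306), and 2 ina genes. The symbol ina stood at 2 identifiers, ENSDARG00000053248 and ENSDARG00000011862. The tables used here do not say which of them is inaa and which is inab, so each is named by its identifier.

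The study set 3 genotypes side by side: fish homozygous for the mfn2 allele (Hom), fish heterozygous for it (Het) and their wild-type siblings (WT). There were 6 families, each from a single mating of its own pair of heterozygous parents, and each family gave 1 library per genotype, 18 in all. Each library was polyA RNA pooled from 4 whole brains, from 2 females and 2 males aged 4 months. Fish were genotyped from tail tissue at 2.5 months and from then on the genotypes of a family lived in separate tanks, so tank and genotype cannot be told apart within a family. The labels name no other allele and no treatment in any group.

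Light and medium chains assemble with one another into long filaments that fill large axons, and the content of these filaments is known to set axon calibre. In mammals the light chain forms the core on which the other chains assemble, alpha-internexin co-assembles with them in central neurons, and peripherin is found mainly in neurons that project out of the brain and spinal cord. In fish, proteins named gefiltin and plasticin, which RefSeq lists as synonyms of inab and prph, are filament proteins of the optic nerve. The gene mfn2 encodes mitofusin, a GTPase of the outer mitochondrial membrane that fuses mitochondria, and human mutations in MFN2 and in NEFL both cause axonal forms of Charcot-Marie-Tooth disease, an inherited neuropathy. In the RefSeq annotation (GRCz12tu), nefla and nefma are direct neighbours on chromosome 21, and neflb and nefmb are direct neighbours on chromosome 8, which also holds mfn2. Alleles linked to mfn2 tend to be inherited with it. For neflb and nefmb an effect of any linked variant and one of the mfn2 allele therefore cannot be told apart. The distance of neflb and nefmb from mfn2 was not examined, so how closely they are linked is not given here.

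Libraries held between 21945070 and 42897654 counts. Transcript levels are given as normalized CPM, counts scaled to library size and then to the composition of each library. The targeted gene mfn2 averaged 29.0 ± 3.22 normalized CPM in Hom, 82.9 ± 18.5 in Het and 120 ± 23.0 in WT brains (SD, n = 6 each). In family 2 the library labelled Het had 117 and the library labelled WT had 75.2, against the order of the labels. The libraries Hom of family 3, Het of family 1 and Het of family 3 stood apart from the other 15: the SD over genes of their log2 difference from the median library was 1.12, 0.74 and 0.72, against 0.22 to 0.32 elsewhere. Neuronal markers were abundant, as the label of brain implies: the 26 tested pan-neuronal genes summed to between 15471 and 20626 normalized CPM in a library. Results that rest on the libraries in doubt are also given without them where a call or a direction changes.

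All 4 neurofilament chain genes were lower in Hom brains than in WT brains, and the other 3 members did not pass the test. The 7 members together gave 795 ± 140 normalized CPM in Hom, 2006 ± 365 in Het and 1909 ± 296 in WT brains (SD, n = 6 each). Over the whole table, 0.423% of tested genes were lower in Hom (86 of 20353), by edgeR's quasi-likelihood test with genotype and family as terms and a Benjamini-Hochberg adjusted p below 0.05. The median log2 fold change of the members was -0.95, against 0.04 for all tested genes. For each of the 4 chains the highest Hom library lay below the lowest WT library, which held for 1.42% of tested genes. Each chain was also lower in 6 of 6 families, as were 8.14% of tested genes. All 4 were also called lower in the fit without the libraries labelled WT and Het of family 2, where 0.244% of tested genes were. In RNA from whole brains, fewer cells of a type and less RNA per cell cannot be told apart.

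Of the light chains, nefla had 146 normalized CPM in the lowest Hom library, a median of 161 and 250 in the highest. In Het brains it had 490, 601 and 861, and in WT brains 462, 609 and 751. The Hom libraries were all below every Het and WT library, whereas Het and WT overlapped across most of their range. The level of nefla was 3.49-fold lower in Hom than in WT (log2 fold change -1.80 ± 0.13 SE, adjusted p = 3.06e-05), the third smallest p of all tested genes. The Hom library of family 2 was the highest of its group, and the Het and WT libraries of that family were also high, at 807 and 751.

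The paralog neflb had 31.1 normalized CPM in the lowest Hom library, a median of 69.2 and 82.0 in the highest. It had 110, 147 and 206 in Het brains and 95.8, 145 and 187 in WT brains. No Hom library reached the lowest WT library, but the gap was narrow, and the lowest value of all was in the Hom library of family 3, which stood apart. The fold change was smaller than that of nefla, 2.23-fold lower in Hom than in WT (-1.15 ± 0.20, adjusted p = 0.00874). It was -0.95 ± 0.12 on the log2 scale, and still past the test, in the fit that left out the 3 libraries that stood apart (adjusted p = 5.67e-04).

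Of the medium chains, nefmb had 17.6 normalized CPM in the lowest Hom library, a median of 34.4 and 55.0 in the highest. In Het brains it had 136, 240 and 334, and in WT brains 147, 226 and 324. The Hom values were far below both other groups, and this was the strongest fold change among the members, 5.99-fold lower in Hom than in WT (-2.58 ± 0.24, adjusted p = 1.11e-04). The log2 fold change was -2.38 ± 0.11 when the 3 libraries that stood apart were left out.

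The medium chain nefma changed least among the 4 chains. It had 324 normalized CPM in the lowest Hom library, a median of 434 and 513 in the highest. It had 746, 831 and 979 in Het brains and 724, 841 and 977 in WT brains. The Hom libraries lay below all Het and WT libraries with a wide gap. Its level was 1.94-fold lower in Hom than in WT (-0.95 ± 0.12, adjusted p = 8.31e-04).

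**Figure D1:**
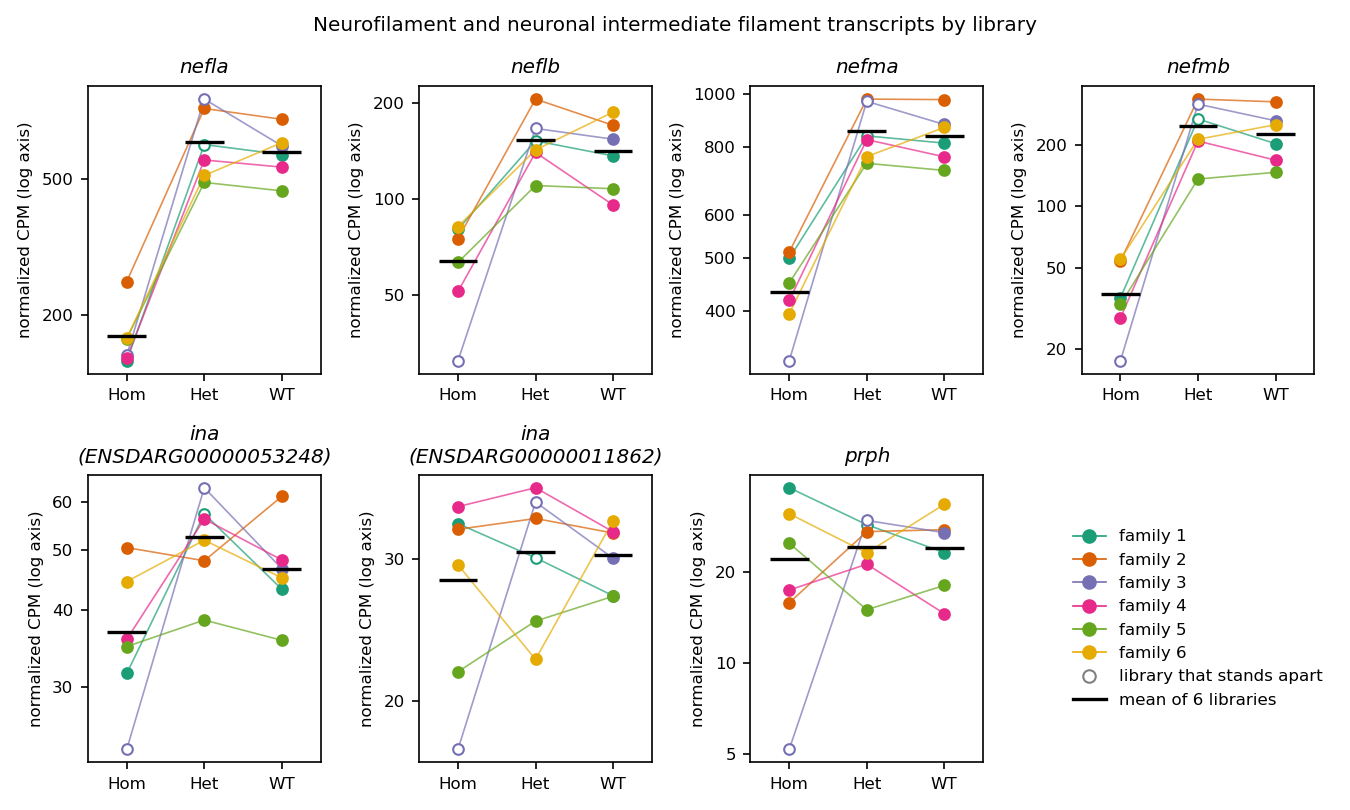
Normalized CPM (log axis, scaled separately in each panel) of the 7 members in the 18 libraries, by genotype; each colour and line is a family, open points are the 3 libraries that stand apart, and black bars are means of 6 libraries. For nefla, neflb, nefma and nefmb every Hom point lies below every Het and WT point, whereas for both ina genes and prph the 3 genotypes overlap.

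The alpha-internexin genes did not pass the test in Hom against WT. For ina (ENSDARG00000053248) the Hom libraries held 23.8 to 50.5 normalized CPM with a median of 35.4, the Het libraries 38.6 to 63.2 with a median of 54.1, and the WT libraries 35.8 to 61.2 with a median of 45.9. The groups overlapped, although the Hom library was the lower of the pair in 6 of 6 families, as for 8.14% of tested genes. Its log2 fold change in Hom against WT was -0.34 ± 0.16 (adjusted p = 0.349), and the exact two-sided sign permutation over 6 families gave an unadjusted p of 0.03125, the smallest that 6 families allow. For ina (ENSDARG00000011862) the Hom libraries held 17.4 to 34.9 normalized CPM, the Het libraries 22.5 to 36.8 and the WT libraries 27.0 to 33.5. Hom values lay on both sides of WT values, lower in 3 families and higher in 3, with a log2 fold change of -0.13 ± 0.15 (adjusted p = 0.731).

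The peripherin gene prph had the widest spread between Hom libraries relative to its mean, 22.1 ± 11.8 normalized CPM (SD, n = 6). It had 38.1 normalized CPM in the Hom library of family 1, 31.2 in family 6, 24.9 in family 5, 17.4 in family 4, 15.8 in family 2 and 5.17 in family 3. The Het libraries held 15.001 to 29.7 and the WT libraries 14.6 to 33.5. The Hom values spread to both sides of the other groups, and the lowest was in a library that stood apart. The log2 fold change in Hom against WT was -0.16 ± 0.34 (adjusted p = 0.844), and it was 0.13 without the 3 libraries that stood apart.

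Het brains did not differ detectably from WT brains in any member. No member passed the test in Het against WT, none had an unadjusted p below 0.05, and none was called by DESeq2 or limma voom. Over all genes 0% were called by edgeR (0 of 20353), with 524 at an unadjusted p below 0.05 and 2 called by DESeq2. The log2 fold change was 0.09 ± 0.13 for nefla, 0.13 ± 0.19 for neflb, 0.03 ± 0.12 for nefma and 0.13 ± 0.22 for nefmb. The largest of these in size, for ina (ENSDARG00000053248), was 0.19 with a range of Het values that overlapped the WT range. A p that misses the threshold does not show that the genotypes are alike.

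Set against Het brains, the same 4 chains were lower in Hom brains, where 0.801% of all tested genes were lower. These 2 comparisons share the Hom libraries, so they are not independent. The log2 fold change in Hom against Het was -2.72 ± 0.24 for nefmb (adjusted p = 9.16e-05) and -1.89 ± 0.13 for nefla (adjusted p = 2.71e-05). It was -1.28 ± 0.20 for neflb (adjusted p = 0.00508) and -0.98 ± 0.12 for nefma (adjusted p = 7.79e-04). In a fit to Hom and Het libraries alone, neflb (adjusted p = 0.114) and nefma (adjusted p = 0.0752) did not pass. The ina gene ENSDARG00000053248 had -0.53 ± 0.16 with an adjusted p of 0.111. DESeq2 called it with an adjusted p of 0.0303, among 1626 genes called in either direction. In edgeR's fit without the 3 libraries that stood apart it had -0.26 ± 0.11 (adjusted p = 0.204). Hom libraries lay below all Het libraries for the 4 chains, as for 1.96% of tested genes.

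**Figure D2:**
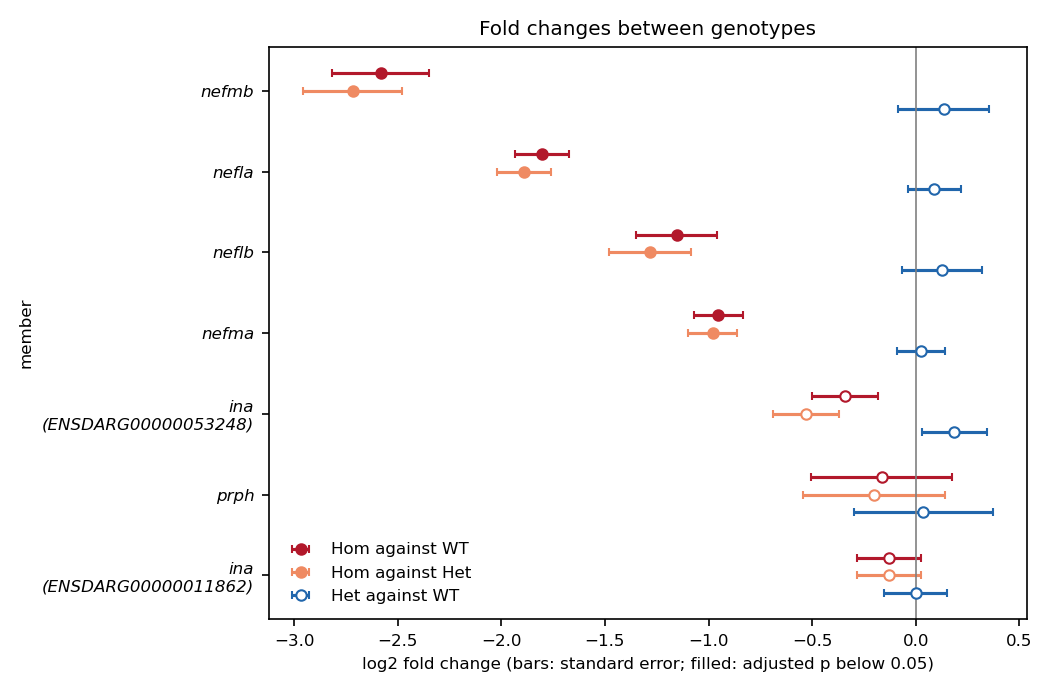
Log2 fold change (x axis) of each member (y axis) in Hom against WT, Hom against Het and Het against WT; points are estimates of edgeR's fit over 18 libraries, bars are standard errors, and filled points have an adjusted p below 0.05. The 4 chains show filled points between -2.72 and -0.95 for Hom, whereas all Het against WT points lie between 0 and 0.19.

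Whether Het brains lay between the others was tested as the difference between Het and the midpoint of Hom and WT on the log2 scale. A gene that falls by the same factor with each copy of the allele would give 0, and a positive value puts Het nearer to WT on this scale. A gene that loses the same amount of transcript with each copy also gives a positive value. The sign alone therefore does not show a departure from an equal loss per copy, and such a departure was not tested. The gene mfn2 itself was at 0.49 ± 0.14 (adjusted p = 0.388). 2 of the 7 members were above the midpoint, where 0.0442% of all tested genes were (9 of 20353). These were nefla, by 0.99 ± 0.11 (adjusted p = 0.00984), and nefmb, by 1.43 ± 0.19 (adjusted p = 0.0186). In mean normalized CPM, nefla had 173 ± 39.3 in Hom, 646 ± 155 in Het and 603 ± 97.3 in WT brains (SD). For nefmb these were 37.4 ± 14.7, 246 ± 74.5 and 226 ± 65.9, so neither mean was lower in Het than in WT. The difference was 0.70 ± 0.16 for neflb (adjusted p = 0.222) and 0.50 ± 0.10 for nefma (adjusted p = 0.126), which did not pass. DESeq2 called both, among 171 genes in either direction, and limma voom called both, among 89.

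Both calls were lost in some of the fits that left out 1 library. Without the library labelled Het of family 2, nefla had 1.01 (adjusted p = 0.0648) and nefmb 1.45 (adjusted p = 0.0901). Without the Het library of family 4 the adjusted p was 0.0619 for nefla and 0.0643 for nefmb, and nefmb also missed the threshold without the Het library of family 1 or 3 or the WT library of family 1, 2, 4 or 5, with an adjusted p between 0.0526 and 0.0831. Leaving out a whole family lost both calls for family 1, 2, 4 or 5, and that of nefmb for family 6. Over the settings that leave out a library or a family, the difference ranged from 0.88 to 1.06 for nefla and from 1.28 to 1.54 for nefmb. Without both libraries labelled WT and Het of family 2, the adjusted p was 0.147 for nefla and 0.155 for nefmb. With the 3 libraries that stood apart left out, 3 members were called, nefla, nefma and nefmb, where 0.0534% of all tested genes were above the midpoint.

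Within families, the Hom library held 24.2% to 36.8% of the nefla level of its WT sibling library, with a median of 27.0%. For nefmb it held 6.72% to 22.6%, with a median of 17.3%. For neflb it held 20.2% to 58.8%, with a median of 48.8%, and for nefma 36.9% to 62.2%, with a median of 53.5%. The lowest share of each of the 4 chains was in family 3, whose Hom library stood apart. In the other 5 families nefmb held 16.7% to 22.6% and neflb 43.7% to 58.8%, so family 3 set the low end of both ranges. The Het library held 80.1% to 137% of the WT level for nefla, and the WT level was the higher of the 2 in family 6 for all 4 chains.

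**Figure D3:**
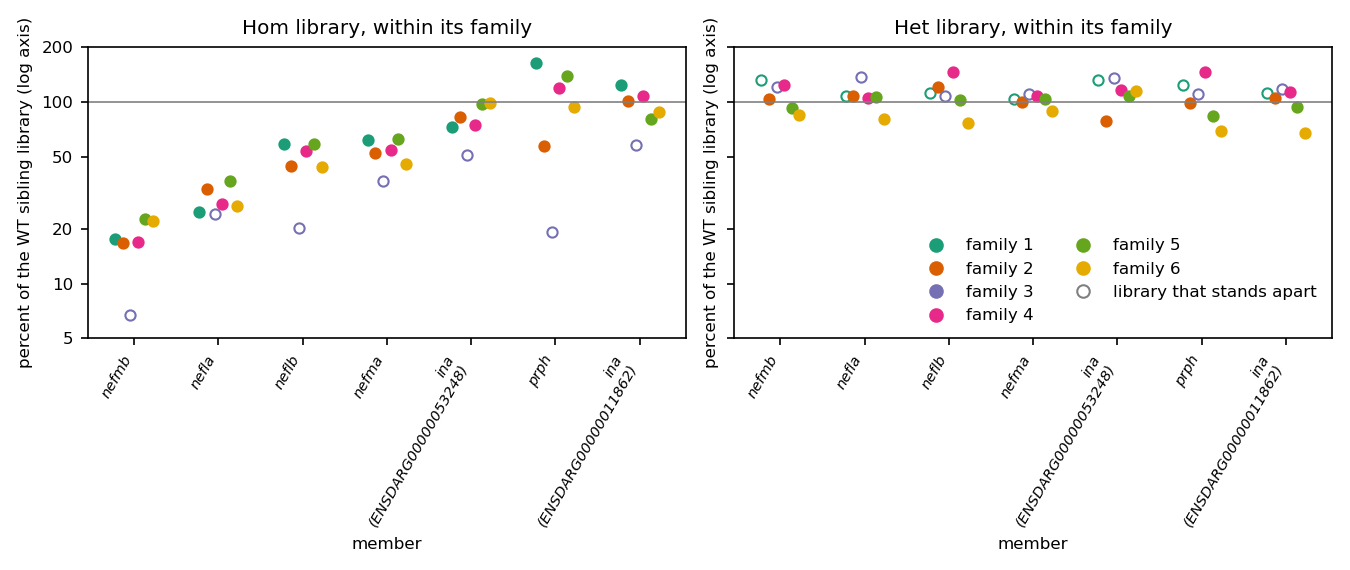
Level of each member in the Hom library (left) and the Het library (right) as a percent of the WT sibling library of the same family (log axis); colours are families, open points are libraries that stand apart, and the grey line marks 100%. In Hom all points of nefmb, nefla, neflb and nefma lie at 62.2% or less, whereas in Het they lie on both sides of 100%.

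Families differed beside genotype in 1.91% of tested genes (389 of 20353), by the F test of the family terms, and in none of the 7 members. The smallest p of a member was that of nefla (unadjusted p = 0.0283, adjusted p = 0.29), which was the only member under 0.05 unadjusted. DESeq2 called 1 member among 1975 genes, and limma voom called 4 among 3979, so both called many more genes than edgeR. When the 3 libraries that stood apart were left out, 10.7% of tested genes were called and 3 members were among them, with adjusted p-values of 0.0136 for nefla, 0.0457 for neflb and 0.00417 for nefmb. In WT libraries nefla was lowest in family 5 (462 normalized CPM) and highest in family 2 (751), and nefmb was likewise lowest in family 5 (147) and highest in family 2 (324).

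The share of each paralog in the counts of its chain was set side by side between genotypes. The share of nefmb in the counts of the medium chain pair was 7.80 ± 2.60% in Hom, 21.9 ± 3.74% in Het and 20.8 ± 3.12% in WT brains (SD, n = 6 each). Hom shares ran from 5.15% to 12.2% and WT shares from 16.8% to 24.9%, with no overlap. The ratio of nefma to nefmb was higher in Hom than in WT by 1.67 ± 0.45 on the log2 scale (SD over 6 families, higher in 6 of 6). The exact two-sided sign permutation gave p = 0.03125, the smallest that 6 families allow. Adjusted over the 3 pairs it was 0.09375. How low the adjusted value can go depends on the p-values of the other pairs, so this value says nothing of the size of the difference. Against Het the ratio was higher in Hom by 1.75 (6 of 6 families, exact p = 0.03125, adjusted 0.0469).

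In the light chain pair the ratio moved the other way. The share of neflb was 26.8 ± 6.59% in Hom, 19.3 ± 1.87% in Het and 18.9 ± 2.45% in WT brains (SD, n = 6 each). The ratio of nefla to neflb in Hom minus that in WT was -0.63 ± 0.52 on the log2 scale, lower in 5 of 6 families (exact p = 0.0625, adjusted 0.09375). Against Het it was -0.59, lower in 6 of 6 families (exact p = 0.03125, adjusted 0.0469). By the estimates, the member on chromosome 8 had the larger fold change of the medium chain pair and the smaller of the light chain pair. After adjustment the ratio passed for neither pair in Hom against WT (0.09375 each) and for both in Hom against Het (0.0469 each). For the ina pair, ENSDARG00000011862 made up 43.4 ± 5.52% in Hom, 36.8 ± 4.09% in Het and 39.7 ± 3.08% in WT brains, and no comparison passed. How reads that match both paralogs were counted is not given in the sources used here, so the split between paralogs is uncertain to that extent.

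**Figure D4:**
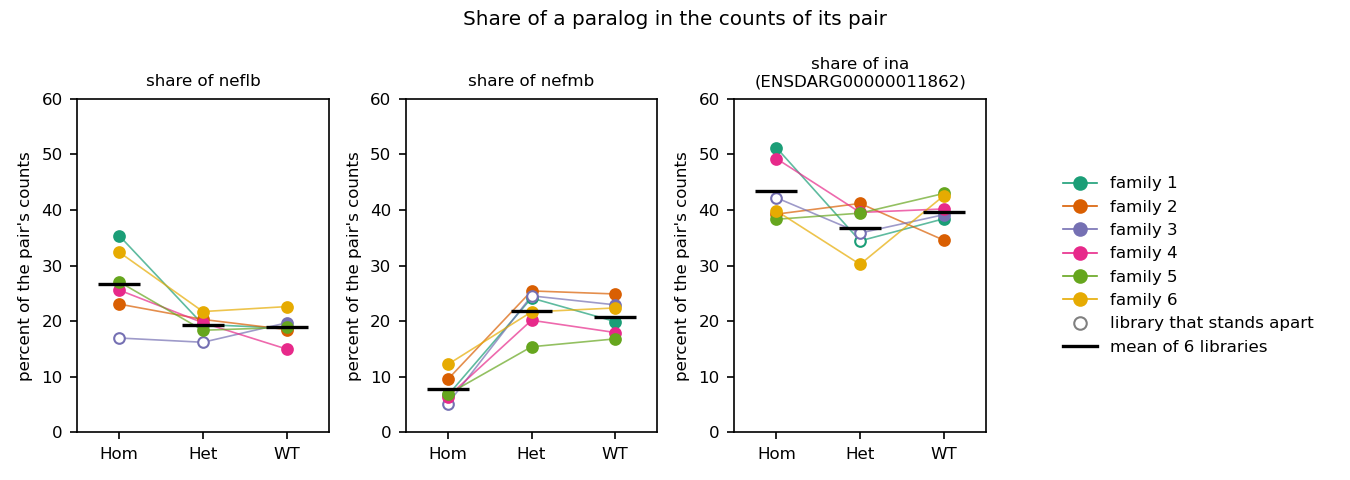
Percent of the counts of each paralog pair that came from neflb (of neflb and nefla), nefmb (of nefmb and nefma) and ina ENSDARG00000011862 (of both ina genes), per library and genotype; lines join libraries of a family, open points are libraries that stand apart, and black bars are means of 6. The nefmb share is at most 12.2% in the Hom libraries and at least 15.4% in the Het and WT libraries.

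How the members varied together within a genotype was described over libraries. Pearson's r between the deviations of 2 members from their genotype means, over 18 libraries, was 0.90 for neflb with nefmb, 0.80 for nefla with nefmb and 0.74 for nefla with nefma. Over the 15 libraries that did not stand apart these were 0.88, 0.85 and 0.79. Of the 21 pairs, neflb with nefmb had the highest value over both sets of libraries. These 2 genes are direct neighbours, as are nefla and nefma. The value of nefla with nefma was below that of nefla with nefmb, which lie on different chromosomes. The value for neflb with prph was 0.89 (0.81 over 15 libraries), whereas for nefla with prph it was 0.28 (0.17 over 15). For nefmb with ina (ENSDARG00000053248) it was 0.83 (0.73 over 15), and for neflb with nefma 0.82 (0.71 over 15). The paralogs nefla and neflb had 0.60 (0.67 over 15). All members share the same libraries, so library composition enters each of these values.

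Over the levels themselves, which include the genotype difference, nefmb was the closest of all tested genes to nefla (r = 0.978 over 18 libraries) and to nefma (r = 0.975). Among named genes outside the family, fxyd7, which encodes a FXYD protein of the Na,K-ATPase, was the most like nefla (r = 0.960) and nefmb (r = 0.955). It averaged 57.9 normalized CPM in Hom and 109 in WT brains. Next for nefla came cyp51a1, an enzyme of sterol synthesis (r = 0.952), and eef1a2, a translation elongation factor of neurons and muscle (r = 0.950). Over the 15 libraries that did not stand apart, fxyd7 stayed the closest to nefla and nefmb. The mitochondrial gene mt-co2 (r = 0.959 and 0.951) and tmprss4b (r = 0.955 and 0.951) then came next for nefla and nefmb. Over all 18 libraries mt-co2 had 0.809 and 0.878, and tmprss4b had 0.938 and 0.896. For nefma the closest were vamp1a, a synaptic vesicle SNARE (r = 0.958), and eef1a1 (ENSDARG00000069951, r = 0.951). Over the 15 libraries these had 0.941 and 0.938 and were no longer the closest to nefma. The closest were then mical3b (r = 0.954, but 0.156 over 18) and sms (r = 0.952). The mitochondrial gene mt-co1, a subunit of cytochrome c oxidase, had r = 0.953 with nefmb and 0.949 with nefma, and averaged 14637 normalized CPM in Hom and 30756 in WT brains. For neflb the closest named gene was si:ch211-212o1.2 (r = 0.969), followed by slc7a10 (ENSDARG00000008100, an amino acid transporter, r = 0.968). Over the 15 libraries si:ch211-134o20.4 came first for neflb (r = 0.958), then slc7a10 (r = 0.957). The genes most like prph were xrcc1, of DNA repair (r = 0.920), and pyya, a peptide YY (r = 0.917). This order rested on the libraries that stood apart: over the other 15 these were 0.796 and 0.778, and the closest were ret, a receptor tyrosine kinase (r = 0.864), and slc6a9, a glycine transporter (r = 0.852). Those most like ina were mbd3b for ENSDARG00000053248 (r = 0.914) and rpap3 for ENSDARG00000011862 (r = 0.924). Over the other 15 libraries mbd3b stayed first (r = 0.889). For ENSDARG00000011862 rspry1 (r = 0.907, but 0.299 over 18) then came before rpap3 (r = 0.885).

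None of the 16 other intermediate filament genes listed and tested was called lower by edgeR, where 0.423% of all tested genes were. At so small a share, a count of 0 of 16 says little of these genes. At an unadjusted p below 0.05, 0 of 16 were lower and 2 higher, and 2919 of 20353 genes passed in either direction. The listed desmin genes desma and desmb were not matched to an identifier. Intermediate filament genes outside the list were not examined. Of 16 tested (lamins, keratins, vimentin, gfap, nestin, synemin, syncoilin and lens filament genes), 0 were lower and 1 was higher in Hom than in WT, where 1.49% of all tested genes were higher, and their median log2 fold change was 0.07. The 1 that rose was nes, the nestin gene of neural progenitors, with 76.8 ± 21.0 normalized CPM in Hom and 21.2 ± 2.57 in WT brains (SD, n = 6 each), a log2 fold change of 1.85 ± 0.19 (adjusted p = 2.25e-04, higher in 6 of 6 families). The next, krt18b, had 0.82 ± 0.30, with an adjusted p of 0.236. In the fit that left out the 3 libraries, 4 of the 16 were higher and 0 lower, where 4.77% and 3.29% of all tested genes were.

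**Figure D5:**
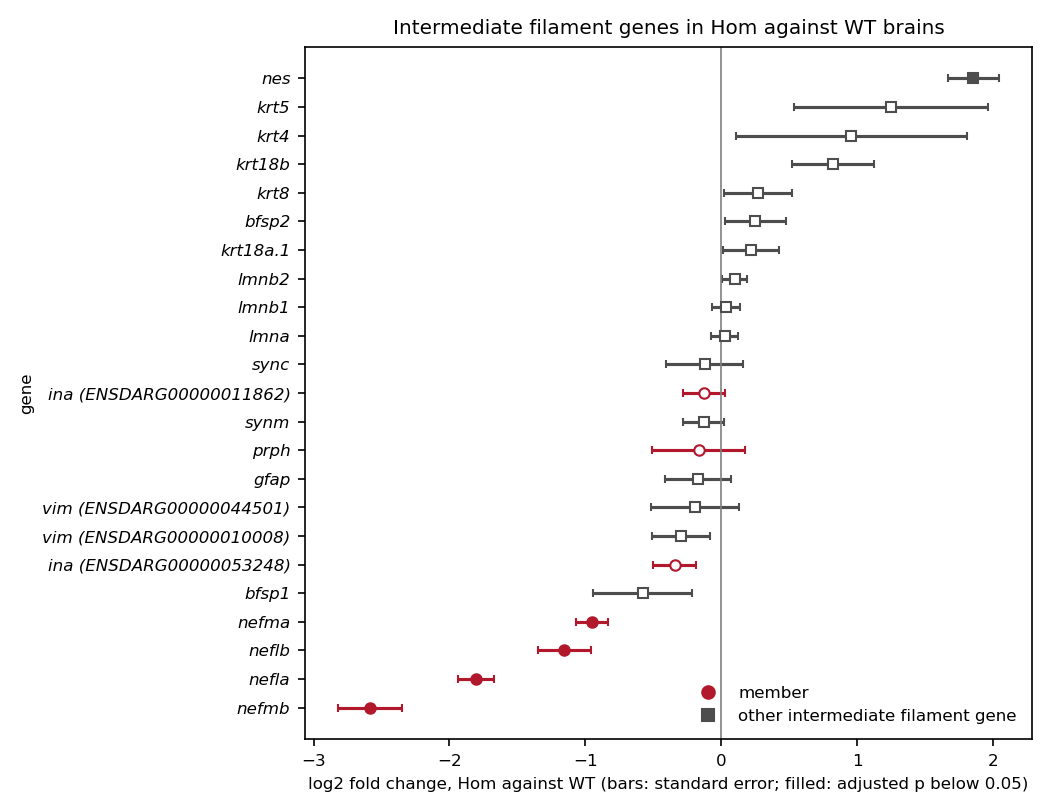
Log2 fold change in Hom against WT (x axis) of the 7 members (circles) and the 16 other intermediate filament genes listed and tested (squares), ordered by value. Bars are standard errors and filled symbols have an adjusted p below 0.05. The 4 neurofilament chains are the only filled symbols below 0 and nes is the only one above 0 among the genes shown.

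Genes that transport, link, phosphorylate or turn over neurofilaments mostly did not pass the test. Of 40 tested, 0 were lower and 1 was higher, where 0.423% and 1.49% of all tested genes were. It was hspb8, a small heat shock protein (0.89 ± 0.20, adjusted p = 0.0355), with 7.14 normalized CPM in Hom and 3.81 in WT brains. The next, plecb, a plectin that links filaments, had 0.31 and did not pass (adjusted p = 0.212). Without the 3 libraries that stood apart 1 of the 40 was lower (kif5a, an axonal kinesin, named after its value was seen) and 1 higher, where 3.29% and 4.77% of all tested genes were. Of 49 tested genes of the axonal microtubule and spectrin cytoskeleton, 11 were lower and 0 higher at an unadjusted p below 0.05. Over all genes 2919 of 20353 passed that threshold in either direction. By adjusted p 1 of the 49 was lower and 0 were higher, where 0.423% and 1.49% of all tested genes were. It was tubb2b (ENSDARG00000039522), a beta-tubulin, with 193 normalized CPM in Hom and 346 in WT brains (-0.86 ± 0.18, adjusted p = 0.0305), and map1b, a microtubule-associated protein, did not pass (-0.41, adjusted p = 0.0818). Without the 3 libraries that stood apart, 10 of the 49 were lower, where 3.29% of all tested genes were. Of 30 tested genes whose human counterparts are linked to axonal Charcot-Marie-Tooth disease, 0 were lower and 2 were higher, hspb8 and the ion channel gene trpv4 (1.12 ± 0.26, adjusted p = 0.0435), where 0.423% and 1.49% of all tested genes were. This list held neither mfn2 nor a neurofilament gene, and mfn2, nefla and neflb were called lower in Hom than in WT. The level of trpv4 was low, 2.49 normalized CPM in Hom and 1.14 in WT brains. Without those 3 libraries 4 of the 30 were lower and 5 higher, where 3.29% and 4.77% of all tested genes were.

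Markers of cell classes were set beside the fall of the chains. Over all genes, 0.423% were called lower and 1.49% higher in Hom than in WT, and 2919 of 20353 had an unadjusted p below 0.05 in either direction. Of 26 tested pan-neuronal genes, 0 passed in either direction in Hom against WT by edgeR (7 lower and 0 higher at an unadjusted p below 0.05), with a median log2 fold change of -0.19, and their summed level was 15471 to 18298 normalized CPM in Hom, 17601 to 20197 in Het and 18494 to 20626 in WT libraries. The Hom and WT ranges of this sum did not overlap, and without the 3 libraries that stood apart 7 of the 26 were lower. Of 28 tested genes listed as markers of long-projecting, motor and brainstem neurons, 0 passed (4 lower and 1 higher unadjusted, median -0.15). This list summed to 941 to 1175 in Hom, 1126 to 1567 in Het and 1126 to 1292 in WT libraries. The highest mean among its tested genes was that of pvalb7, 361 normalized CPM over 18 libraries. How far the listed genes are limited to such neurons was not examined, so the sums may not describe such neurons alone. Of 13 myelin genes and of 15 radial glia genes 0 passed (3 lower and 0 higher unadjusted in each list), with medians of -0.06 and -0.31. The myelin list summed to 7756 to 19538 in Hom, 15697 to 29540 in Het and 14111 to 21860 in WT libraries. For the radial glia list the sums were 5318.5 to 8342, 7511 to 9888 and 7497 to 10040. The lowest Hom sum of both lists was in family 3, and the next were 8961 for myelin and 6974 for radial glia. Of 15 microglia and macrophage genes 3 were higher and 0 lower (median 0.64), with sums of 728 to 2249.5 in Hom, 974 to 1568 in Het and 971 to 1344 in WT libraries. The low end in Hom was the library of family 3, and the other 5 Hom libraries, at 1654 to 2249.5, lay above every Het and WT library. In the fit without the 3 libraries that stood apart, 3.29% of all tested genes were lower and 4.77% higher. There 12 of the 15 microglia and macrophage genes were higher and 1 lower. In the same fit 1 of the 13 myelin genes was lower and 1 higher, and 1 of the 15 radial glia genes was lower. Of the 28 genes listed for long-projecting, motor and brainstem neurons 1 was lower, pvalb7, named after its value was seen. The part of these differences in the fall of the chains was not tested.

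Summed levels of markers of other tissues varied between libraries. The summed level of 16 oocyte genes was 145 normalized CPM in the Hom library of family 3 and at most 7.17 elsewhere, in a Het library. The 12 skeletal muscle genes summed to at most 25.4 in Hom, 1516 in Het and 128 in WT libraries, whereas the 7 erythrocyte genes summed to 256 to 3171 in Hom, 943 to 3993 in Het and 897 to 2702 in WT libraries, the lowest Hom value being that of family 3 and the next 578. The 20 photoreceptor and pineal genes summed to 10.02 to 98.2 in Hom, 10.4 to 27.7 in Het and 12.2 to 173 in WT libraries. Not all of these genes had enough counts to be tested, only 2 of the oocyte genes, 11 of the muscle genes, 4 of the erythrocyte genes and 11 of the photoreceptor and pineal genes. Of those tested, 0 passed in Hom against WT by edgeR and 0 had an unadjusted p below 0.05, and 1 erythrocyte gene was at 0 in every library. Without the 3 libraries that stood apart the 4 chains were lower in Hom than in WT with adjusted p-values between 4.55e-07 and 5.67e-04, where 3.29% of all tested genes were lower.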

How the data were processed

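The deposited table holds raw counts of reads per Ensembl gene for 18 libraries of pooled zebrafish brain. Per the submitters' processing notes, the authors used STAR 2.7.0a, Subread 1.5.2 (featureCounts) and the genome build GRCz11; no source used here names the strand or multiple-match settings. Gene symbols were matched to 28988 of 32057 identifiers. Columns were assigned to genotype and family by name.

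Genes were filtered with filterByExpr (minimum count 10, minimum total 15), scaled by TMM and fitted in edgeR 4.0.16 (R 4.3.3) by the quasi-likelihood test with genotype and family as terms, all 18 libraries in 1 fit and a prior count of 0.125. P-values were adjusted by Benjamini-Hochberg over all 20353 tested genes of a comparison, threshold 0.05. The SE given with a log2 fold change was derived from the test, as its absolute value divided by the square root of the quasi-likelihood F. Each family is a shared mating per the labels, which is why family is a block. Deviations from the genotype means had a median correlation of 0.19 over 18 same-family pairs (3 below 0.1) and -0.06 over 90 others. The lowest chi-square per degree of freedom between libraries of a genotype was 16.6, so none counted as a duplicate. Ratios of paralogs used log2(CPM + 0.5) and an exact sign permutation over families. Levels were not compared between genes, because CPM is not set per transcript length.

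A library stood apart where the SD over 13196 genes (mean CPM of at least 5) of its log2 difference from the median library was over 0.5. Alternatives used DESeq2 1.42.0, limma 3.58.1 (voom with quality weights), other scalings and filters, and fits without single libraries or families. The fit was also run on simulated counts. These held no family effect and no library that stood apart, so that run does not cover these features of the data. The members, the gene lists and the left-out libraries were chosen with earlier results of these data known. Named genes were all members and mfn2; of each pathway list those past the test, up to 4, otherwise or beside them the next by p; and for likeness the closest named genes by Pearson's r over 18 libraries. No batch of extraction or sequencing is labelled.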

Additional observations from a re-analysis of the deposited data

Results flagged for a closer look

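Of 33 groups of 6 libraries examined for an outlying value (the 7 members, mfn2 and 3 paralog shares, by genotype), 2 held a library far from the others of its group by Dixon's test, where chance gives about 5%. For nefla the Hom library of family 2 had 250.2 normalized CPM, while the other 5 Hom libraries had 146 to 171. It still lay below every Het and WT library. For mfn2 the library labelled WT of family 2 had 75.2 normalized CPM, while the other WT libraries had 120 to 140. Without the libraries labelled WT and Het of family 2, all 4 chains were still called lower in Hom than in WT. Whether these 2 libraries carry each other's labels was not tested.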

How the results depend on the processing

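The log2 fold changes of nefla, neflb, nefma and nefmb in Hom against WT kept their direction and stayed past the test in each of 36 alternative settings per gene. In 1 of the 36, the exact sign permutation over families, p was unadjusted and was 0.03125 for each chain. Any gene lower in 6 of 6 families reaches this value, and 8.14% of tested genes were lower in 6 of 6. The fit with no replicate block called 4 members in Hom against WT, 4 in Hom against Het, 0 in Het against WT and 2 in Het against the midpoint, as with the family block, and 341, 423, 0 and 14 genes.

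Counts over all genes depended more on the setting. In Hom against WT 1054 genes were called by DESeq2, 2012 by limma voom, 202 in a fit of the 2 groups alone, 1658 without the 3 libraries that stood apart, 238 without the libraries labelled WT and Het of family 2, and 142 to 716 when single libraries or families were left out. In Hom against Het, in the same order, there were 1626, 1411, 46, 981, 185 and 127 to 662, and only 2 members were called in the fit of the 2 groups alone. In Het against WT DESeq2 called 2 genes. In Het against the midpoint 5 genes were called with upper-quartile factors, 4 genes and 1 member with total counts, 5 genes with no low-count filter, 171 genes and 4 members by DESeq2, 89 and 4 by limma voom, 24 without the 3 libraries, 0 and 0 without the 2 of family 2, and 0 to 38 genes and 0 to 4 members in the fits that leave out a library. Between families 1975 genes and 1 member were called by DESeq2, 3979 and 4 by limma voom, 2207 and 3 without the 3 libraries, 163 without the 2 of family 2, and 135 to 1096 genes and 0 to 2 members in the fits that leave out a library. With fewer than 6 families the sign permutation cannot pass: the Hom against Het ratio was -0.56 and -0.66 for nefla to neflb and 1.46 and 1.77 for nefma to nefmb (without the 3 libraries and without the 2 of family 2), with ranges of -0.69 to -0.47 and 1.59 to 1.91 when a family was left out. The nefla to neflb ratio in Het against WT ranged from -0.116 to 0.048.

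The sign of values near 0 that passed no test turned. In Het against WT the log2 fold change of ina_11862 (ina, ENSDARG00000011862) was -0.0047 with DESeq2 size factors, -0.0041 with total counts, -0.0044 by DESeq2, -0.010 in the 2 groups alone, -0.062 without the 3 libraries, -0.011 without the 2 of family 2 and -0.0069 in the family differences. By limma voom it was 0.022 in Hom against WT and 0.0037 in Hom against Het, and prph had 0.066 and 0.010. Without the 3 libraries prph had 0.13 in Hom against WT, 0.12 in Hom against Het and -0.055 against the midpoint, ina_11862 had 0.056 in Hom against Het and -0.059 against the midpoint, and nefla had -0.047 in Het against WT. Leaving out a library or family gave, in Het against WT, -0.12 to 0.11 for ina_11862, -0.017 to 0.17 for nefla, -0.046 to 0.070 for nefma, -0.025 to 0.24 for nefmb and -0.18 to 0.21 for prph. It gave -0.21 to 0.013 for ina_11862 and -0.35 to 0.14 for prph in Hom against WT, -0.23 to 0.041 and -0.40 to 0.12 in Hom against Het, and -0.050 to 0.17 and -0.067 to 0.24 against the midpoint. The causes were not tested.

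Total-count scaling put the median of all genes at 0.12 in Hom against WT and 0.15 in Hom against Het, against 0.04 and 0.06 with TMM. Levels per transcript length were not computed, so that alternative was not run. The lowest count of a member in a library was 104, for prph.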
